A study of Arabidopsis thaliana with 66 samples.

Results

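Roots of the Arabidopsis thaliana line N8507 were compared with roots of Col-0, the laboratory reference strain, in plants of both genotypes given the mock treatment. The comparison took 6 of the 66 RNA-seq libraries of the series, 3 from N8507 and 3 from Col-0, chosen by the genotype and treatment in the labels and by no measured value. The series covers 4 genotypes and asks how thorium, phosphate supply and hydroxyapatite nanoparticles change root transcripts over 14 days. Mock plants were the untreated controls, whose medium is called full medium here because phosphate was withheld only from the other sets. The further N8507 and Col-0 libraries used below came from phosphate-free medium (-P), 3 each, and from phosphate-free medium with nano-hydroxyapatite (nanoP), 3 each. Levels were also read in mock plants of N8508 and N9416, 3 libraries each, and in 3 libraries each of N8507 given thorium on mock medium (mock+Th) and of Col-0 given thorium on nanoP medium (nanoP+Th) and on -P medium (-P+Th). The altered gene, the allele and the parental strain of N8507, N8508 and N9416 are not given in the sources used here, so no targeted gene could be checked.

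Plants sense phosphate through the transcription factor PHR1, which switches on transporters, phosphatases and lipid remodelling when phosphate is short and is held back by SPX proteins when it is plentiful. The ubiquitin-conjugating enzyme PHO2 limits phosphate uptake and loading into the xylem by having the transporters of the PHT1 family and the exporter PHO1 broken down. During starvation the microRNA miR399 lowers PHO2 transcripts, and the non-coding RNAs IPS1 and AT4 bind that microRNA in turn.

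Salmon assigned between 13834473 and 15694137 reads to transcripts in each of the 6 libraries. Levels are read counts scaled to the total of their library (CPM), and fold changes are N8507 over Col-0 on the log2 scale with their standard error (SE). Adjusted p is that of edgeR's quasi-likelihood test with Benjamini-Hochberg adjustment over all genes tested, and a gene is said to have risen or fallen only where it was under 0.05. The labels do not say that replicates came from separate plants or plates, so p-values measure the spread between libraries. The log levels of all genes correlated at 0.963 to 0.978 between N8507 libraries and at 0.988 to 0.99 between Col-0 libraries, against 0.879 to 0.901 across genotypes, and N8507 replicate 3 stood apart from the other 2 in its heat shock genes.

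Of 19377 genes tested, 6615 (34.1%) differed between N8507 and Col-0 on full medium. N8507 was higher for 3339 (17.2%) and lower for 3276 (16.9%), and the median log2 fold change over all genes was 0.02. Changes of 2-fold or more were called for 3133 genes, and of 4-fold or more for 1247. At an unadjusted p under 0.05, 8552 of the 19377 genes differed, and DESeq2, the alternative test, called 7127 genes. Every N8507 library lay above every Col-0 library for 4523 genes (23.3%) and below every Col-0 library for 4961 (25.6%), so separate groups were common. These shares are the background against which each group of genes below is read. With 1 library left out, the number of genes called lay between 4247, without Col-0 replicate 3, and 8308, without N8507 replicate 3.

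PHO2 (AT2G33770) was far lower in N8507. It reached 40.3, 54.1 and 74.5 CPM in the N8507 libraries, against 1108, 1195 and 1156 CPM in the Col-0 libraries. Every N8507 library lay far under every Col-0 library, and the mean was 20.3-fold lower in N8507 (log2 fold change -4.34, SE 0.23, adjusted p = 6e-06). Among the other mock libraries of the series PHO2 spanned 436.0 to 438 CPM in N8508 and 1068 to 1362 CPM in N9416. PHO1, the exporter that loads phosphate into the xylem, had 782, 644 and 826 CPM in N8507 and 925, 899 and 1025 CPM in Col-0. Its groups did not overlap, but the difference missed the threshold (log2 fold change -0.32, SE 0.15, adjusted p = 0.13), and without N8507 replicate 3 it passed. PHR1 itself had 59.3, 55.2 and 52.8 CPM in N8507 and 47.8, 50.7 and 50.1 CPM in Col-0, a difference that also missed the threshold (log2 fold change 0.19, SE 0.11, adjusted p = 0.21).

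Transcripts known to rise in phosphate starvation were in part higher in N8507 although phosphate had not been withheld. Of 29 tested members of a list of 32 starvation-induced genes, 12 rose and 7 fell, with a median log2 fold change of 0.67. Without N8507 replicate 3 the counts were 13 and 7. With 1 library left out, the number that rose ran from 9, without Col-0 replicate 2, to 15, without N8507 replicate 1. The summed level of the list was 965, 977 and 1429 CPM in N8507, against 810, 783 and 841 CPM in Col-0. On -P the sum spanned 9788 to 12785 CPM in N8507 and 12876 to 15408 CPM in Col-0. On nanoP it spanned 1024 to 1159 CPM in N8507 and 638 to 708 CPM in Col-0. The sources of the lists are textbook pathways, and all were compiled with earlier results of these data known.

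Both RNAs that bind miR399 rose, IPS1 by more than any other member of the list. IPS1 (AT3G09922) reached 2.23, 2.67 and 5.2 CPM in N8507, against 0.257, 0 and 0.273 CPM in Col-0 (log2 fold change 4.18, SE 0.72, adjusted p = 0.0025). AT4 (AT5G03545) reached 62.1, 125 and 137 CPM in N8507, against 21.4, 20 and 19.9 CPM in Col-0 (log2 fold change 2.41, SE 0.26, adjusted p = 0.00022). Neither pair of groups overlapped, and yet the IPS1 level on full medium remained a small part of what both genotypes reached on -P, where it spanned 323 to 438 CPM in N8507 and 636 to 851 CPM in Col-0.

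Among the genes of SPX proteins, which report phosphate status to PHR1, SPX1 and SPX3 also had more abundant transcripts. SPX2 and SPX4 were not called (log2 fold changes 0.42 and 0.45, adjusted p = 0.16 and 0.061). SPX1 had 53.8, 51.2 and 95.8 CPM in N8507 and 26.3, 31.0 and 20.5 CPM in Col-0 (log2 fold change 1.39, SE 0.25, adjusted p = 0.0031). SPX3 rose too (log2 fold change 2.39, SE 0.62, adjusted p = 0.017), at 1.85, 4.17 and 10.5 CPM in N8507 against 0.706, 1.2 and 1.23 CPM in Col-0, and was called in 3 of the 6 fits that left out 1 library, with a log2 fold change of 1.54 without N8507 replicate 3.

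The phosphate transporter PHT1;4 reached 40.9, 28.6 and 29.1 CPM in N8507, against 6.68, 5.38 and 5.19 CPM in Col-0, 5.79-fold higher (log2 fold change 2.53, SE 0.21, adjusted p = 5.5e-05). PHO1;H1, a relative of the xylem exporter, had 81.9, 72.3 and 97.4 CPM in N8507 and 33.6, 20.5 and 27.6 CPM in Col-0 (log2 fold change 1.64, SE 0.19, adjusted p = 0.00036). In both genes the lowest N8507 library stood above the highest Col-0 library. The phosphodiesterase gene GDPD1 rose by 1.75 on the log2 scale, the sulfolipid synthase gene SQD2 by 0.76, the phosphatase genes PAP17 and PAP10 by 1.14 and 0.65, and PPCK1, a kinase of phosphoenolpyruvate carboxylase, by 0.87. The locus AT1G68670, a MYB-like transcription factor gene, rose by 1.82.

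Other genes of the same starvation list went the opposite way. NPC4, a phospholipase C that breaks down membrane phospholipids to free phosphate, had 6.37, 6.77 and 8.17 CPM in N8507 and 46.6, 48.4 and 48.8 CPM in Col-0 (log2 fold change -2.74, SE 0.14, adjusted p = 5.4e-06). The ribonuclease gene RNS1 had 0.255, 0.0684 and 0 CPM in N8507 and 3.72, 2.76 and 2.6 CPM in Col-0 (log2 fold change -4.63, SE 0.7, adjusted p = 0.0013). The transporter PHT1;8 had 4.65, 2.53 and 13.3 CPM in N8507 and 40.5, 37.8 and 46.4 CPM in Col-0 (log2 fold change -2.6, SE 0.47, adjusted p = 0.0032). In all 3 genes the groups were separate. The log2 fold change was -6.12 for RNS1 without N8507 replicate 1 and -3.49 for PHT1;8 without N8507 replicate 3. PHT1;9, the phosphatase gene PAP22, the kinase gene PPCK2 and the phospholipase D gene PLDP2 fell as well, with log2 fold changes of -2.06, -1.98, -1.53 and -0.96. The list thus split between members that rose and members that fell within the same 6 libraries.

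Genes of a further list, phosphate transport and sensing, fell where they changed. Of 20 tested members of a list of 24, 0 rose and 6 fell by edgeR's test, with a median log2 fold change of -0.1. Higher members numbered 4 at an unadjusted p under 0.05 and 1 by DESeq2, and 4 rose and 7 fell without N8507 replicate 3. PHT1;2 had 28.6, 14.4 and 24.1 CPM in N8507 and 328, 312 and 356 CPM in Col-0, 14.6-fold lower in N8507 (log2 fold change -3.87, SE 0.25, adjusted p = 1.9e-05). By level PHT1;2 was far higher in Col-0 on -P, at 4002.5, 3462.9 and 3085.5 CPM, although it is not in the starvation list. PHT1;1 and PHT1;3 are near-identical copies whose reads the counting could share with PHT1;2, so the split among the 3 is uncertain, and PHT1;1 was not called (log2 fold change 0.15). The locus AT1G69480, which encodes an EXS-domain protein of the PHO1 family, had 0.0637, 0.616 and 1.08 CPM in N8507 and 13.2, 10.6 and 11.6 CPM in Col-0 (log2 fold change -4.33, SE 0.53, adjusted p = 0.00046, and -5.09 without N8507 replicate 3). The SPX-domain transporter AT1G63010 fell by 1.17 on the log2 scale, PHO1;H3 by 0.79 and the ferroxidase gene LPR2, which acts in the root tip's growth arrest under low phosphate, by 0.64.

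**Figure D1:**
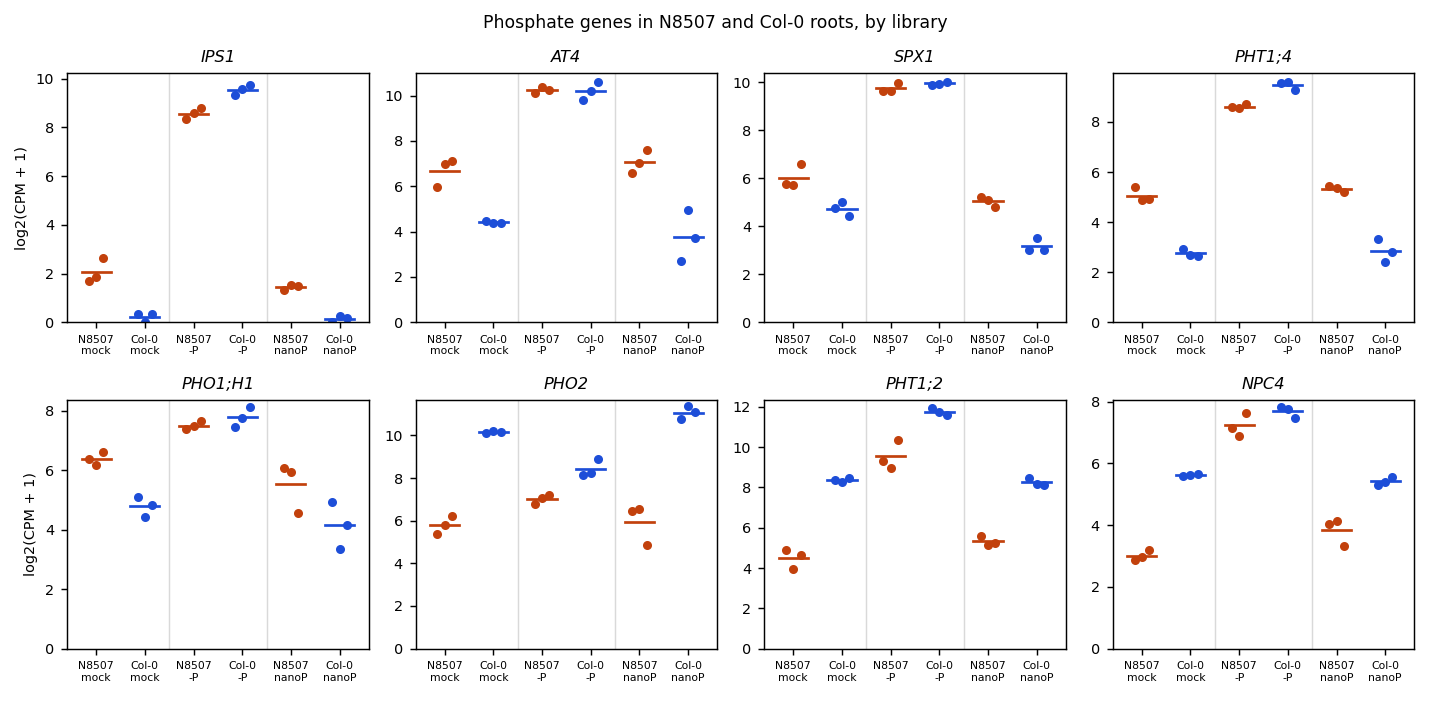
Levels of 8 phosphate genes as log2(CPM + 1) on the vertical axis of each panel, by genotype and medium on the horizontal axis, with 1 point per library (n = 3 per group, N8507 in orange and Col-0 in blue) and a line at the group mean. On mock medium IPS1, AT4, SPX1, PHT1;4 and PHO1;H1 are higher in every N8507 library, and PHO2, PHT1;2 and NPC4 are lower in every N8507 library.

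PHR1 binds a short palindrome, the P1BS element, which was searched as GNATATNC (its own reverse complement, so both strands are covered) in the 250 bases before each gene's start as RefSeq gives it on the TAIR10.1 build. The element occurred in 1452 of 26639 promoters (5.45%), in 11 of the 32 starvation-induced genes (34.4%) and in 3 of the 24 transport and sensing genes (12.5%). In the starvation list it stood before genes that rose (AT4, SPX3, GDPD1, PPCK1), that fell (NPC4, PLDP2) and that were tested but not called (PS2, MGD2, GDPD5). In the transport and sensing list it stood before PHT1;2, which fell, and SIZ1, which was not called. These letters were not in the window of IPS1, SPX1 or PHT1;4. The promoters below come from genes that rose and genes that fell. The element is in capitals, and each sequence is read along its gene's own strand. The first 3 belong to genes that rose in N8507. AT4 lies on the forward strand (chr5:894332-894581), SPX3 on the forward strand (chr2:18606160-18606409) and GDPD1 on the reverse strand (chr3:350011-350260).
AT4: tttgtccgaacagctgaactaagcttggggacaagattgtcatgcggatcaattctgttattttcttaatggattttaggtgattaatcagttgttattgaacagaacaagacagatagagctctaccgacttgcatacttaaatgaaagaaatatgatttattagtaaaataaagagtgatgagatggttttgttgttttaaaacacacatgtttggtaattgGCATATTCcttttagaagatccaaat
SPX3: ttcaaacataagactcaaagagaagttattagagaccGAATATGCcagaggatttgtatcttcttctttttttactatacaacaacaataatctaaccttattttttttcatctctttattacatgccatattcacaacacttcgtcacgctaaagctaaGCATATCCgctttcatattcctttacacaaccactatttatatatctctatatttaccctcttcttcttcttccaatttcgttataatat
GDPD1: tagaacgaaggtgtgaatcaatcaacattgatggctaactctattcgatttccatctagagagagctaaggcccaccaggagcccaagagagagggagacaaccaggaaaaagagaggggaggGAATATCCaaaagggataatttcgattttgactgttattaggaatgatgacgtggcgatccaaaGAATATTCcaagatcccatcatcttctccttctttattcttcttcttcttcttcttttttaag

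The last 2 belong to genes that fell in N8507, NPC4 on the reverse strand (chr3:845097-845346) and PHT1;2 on the forward strand (chr5:17415448-17415697).
NPC4: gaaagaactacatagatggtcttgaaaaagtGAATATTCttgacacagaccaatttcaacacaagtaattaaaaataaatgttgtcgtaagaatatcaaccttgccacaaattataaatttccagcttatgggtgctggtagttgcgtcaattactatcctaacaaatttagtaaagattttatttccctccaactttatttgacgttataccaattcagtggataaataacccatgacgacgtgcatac
PHT1;2: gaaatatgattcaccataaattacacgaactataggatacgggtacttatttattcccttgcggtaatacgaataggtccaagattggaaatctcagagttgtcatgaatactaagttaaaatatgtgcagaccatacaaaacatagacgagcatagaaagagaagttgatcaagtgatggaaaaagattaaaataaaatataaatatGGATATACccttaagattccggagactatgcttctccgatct
The element began 26 bases before the start of AT4, 42 before PHT1;2 and 219 before NPC4. SPX3 held it at 213 and 90 bases before the start, and GDPD1 at 127 and 63. A match describes the letters of the window and was not tested as a binding site.

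Outside the loci silent in one genotype, described below, the gene with a symbol that fell most was HAK5 (AT4G13420), the high-affinity potassium transporter of roots, known for its induction when potassium is short. It had 8.28, 5.82 and 9.83 CPM in N8507 and 2056, 2099.8 and 2439 CPM in Col-0, 272-fold lower in N8507 (log2 fold change -8.09, SE 0.26, adjusted p = 1.4e-06). HAK5 was likewise lower in N8507 on -P (log2 fold change -7.83, adjusted p = 2e-05) and on nanoP (log2 fold change -5.5, adjusted p = 0.00017). On mock medium its level spanned 24.9 to 41.0 CPM in N8508 and 61.9 to 84.2 CPM in N9416.

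Nitrogen genes changed in both directions, with 6 of 23 tested members higher, 10 lower and a median log2 fold change of -0.48. The glutamate dehydrogenase gene GDH3 had 4.33, 5.88 and 6.94 CPM in N8507 and 175, 165 and 181 CPM in Col-0 (log2 fold change -4.91, SE 0.17, adjusted p = 1.7e-06). NRT2.5, a high-affinity nitrate transporter of nitrogen-starved roots, had 43.1, 17.2 and 53.0 CPM in N8507 and 415, 316 and 403 CPM in Col-0 (log2 fold change -3.3, SE 0.37, adjusted p = 0.00027). The urea transporter gene DUR3 had 171, 143 and 379 CPM in N8507 and 1722, 1656 and 1948 CPM in Col-0 (log2 fold change -2.93, SE 0.35, adjusted p = 0.00038). All 3 were lower in every N8507 library.

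The glutamine synthetase gene GLN1;4 fell by 3.25 on the log2 scale, the ammonium transporter genes AMT1;5 and AMT1;1 by 2.94 and 1.36, and NRT3.1, the partner protein of the high-affinity nitrate transporters, by 1.89. Genes of nitrate transport, reduction and signalling were found on both sides. The dual-affinity nitrate transporter gene NRT1.1 had 359, 224 and 308 CPM in N8507 and 82.9, 77.1 and 82.5 CPM in Col-0 (log2 fold change 1.9, SE 0.18, adjusted p = 0.00013). The nitrate reductase gene NIA1 rose by 1.54, the MYB-like regulator gene HRS1 by 1.5 and the LBD factor gene LBD39 by 3.1, whereas its relative LBD38 fell by 1.42. The nitrate reductase gene NIA2 and the nitrite reductase gene NIR1 were not called (log2 fold changes 0.29 and -0.48, adjusted p = 0.55 and 0.086). NRT2.4 rose by 1.49 although NRT2.5 and NRT2.2, of the same transporter family, fell.

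Copper genes changed in both directions. Of 12 tested members 3 rose and 6 fell, with a median log2 fold change of -0.5. The copper reductase gene FRO5 had 41.0, 17.2 and 33.3 CPM in N8507 and 284, 346 and 383 CPM in Col-0 (log2 fold change -3.44, SE 0.31, adjusted p = 7.7e-05). ZIP2 and the copper importer gene COPT2 fell by 2.04 and 1.99 on the log2 scale, FSD1, the iron superoxide dismutase made when copper is scarce, by 1.25, and SPL7, the regulator of the copper response, by 0.49. The copper superoxide dismutase genes CSD1 and CSD2 and their chaperone gene CCS rose by 0.5, 0.68 and 0.54. CSD1 and CSD2 were called in 1 of the 6 fits that left out a library. The higher members of the list numbered 3 without N8507 replicate 3, 0 without Col-0 replicate 3 and 1 without any other library.

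Of 20 iron acquisition genes 3 rose and 1 fell, with a median log2 fold change of 0.11. Without N8507 replicate 3, 3 rose and 4 fell and the median was -0.23, and without any 1 Col-0 library 0 fell. IRT1, the root iron importer, had 67.0, 30.3 and 82.5 CPM in N8507 and 34.7, 39.9 and 37.4 CPM in Col-0, groups that overlapped (log2 fold change 0.7, SE 0.3, adjusted p = 0.11). The oxygenase locus AT3G12900 reached 7.2, 3.83 and 7.59 CPM in N8507, against 0.193, 0.142 and 0.205 CPM in Col-0 (log2 fold change 5.06, SE 0.48, adjusted p = 0.00011). NAS2, which makes the metal chelator nicotianamine, and the ferric reductase gene FRO2 rose by 2.72 and 1.57, and F6'H1, the first enzyme of coumarin synthesis, fell by 0.89. The FRO2 and F6'H1 calls held in 3 of the 6 fits that left out a library.

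Among 8 iron storage genes 2 rose and 3 fell, and 1 rose without Col-0 replicate 2, Col-0 replicate 3 or N8507 replicate 2. FER1, the iron storage protein ferritin, had 264, 259 and 267 CPM in N8507 and 399, 418 and 359 CPM in Col-0 (log2 fold change -0.55, SE 0.12, adjusted p = 0.007). VTL2, a vacuolar iron transporter-like gene, rose by 2.93, and the metal-chelate transporter gene YSL1 fell by 2.21. Of 15 sulfur genes 3 rose and 2 fell. The lower ones numbered 1 without Col-0 replicate 1 or 3 and 4 without Col-0 replicate 2, N8507 replicate 1 or N8507 replicate 3. The adenosine phosphosulfate reductase gene APR2 had 128, 142 and 136 CPM in N8507 and 55.6, 45.8 and 39.4 CPM in Col-0 (log2 fold change 1.54, SE 0.14, adjusted p = 9e-05), and the sulfate transporter gene SULTR2;1 fell by 2.41.

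Hypoxia genes rose in N8507. These are the fermentation enzymes, sugar-cleaving enzymes and ERF regulators that plant cells induce when oxygen is short. Of 20 members, all tested, 13 rose and 1 fell, with a median log2 fold change of 1.12. The counts were also 13 and 1 without N8507 replicate 3. The number that rose was 9 without Col-0 replicate 1, 10 without Col-0 replicate 3 and 14 without Col-0 replicate 2. The summed level of the list was 8931, 7205 and 14175 CPM in N8507, against 2929, 4653 and 2643 CPM in Col-0. In the other mock libraries it spanned 6968 to 8952 CPM in N8508 and 2486 to 3696 CPM in N9416.

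The alcohol dehydrogenase gene ADH1 had 3486, 2558 and 5734 CPM in N8507 and 410.1, 862 and 358 CPM in Col-0, 7.33-fold higher (log2 fold change 2.87, SE 0.41, adjusted p = 0.00092). HB1, a haemoglobin that removes nitric oxide in oxygen-poor cells, had 244, 193 and 573 CPM in N8507 and 29.0, 62.8 and 26.4 CPM in Col-0 (log2 fold change 3.11, SE 0.47, adjusted p = 0.0013). In these 2 genes replicate 3 was the highest N8507 library and replicate 2 the highest Col-0 library, and the groups remained separate. The regulator gene HRE2 had 9.43, 14.8 and 32.1 CPM in N8507 and 1.48, 1.42 and 0.0683 CPM in Col-0 (log2 fold change 4.24, SE 0.69, adjusted p = 0.0018). Without N8507 replicate 3 the log2 fold changes of HB1 and HRE2 were 2.51 and 3.62.

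The pyruvate decarboxylase genes PDC1 and PDC2 rose by 2.11 and 1.99 on the log2 scale, the sucrose synthase genes SUS4 and SUS1 by 1.81 and 1.34, the ERF factor gene RAP2.3 by 1.8 and the oxygen-sensing oxidase gene PCO2 by 1.22. PDC1 was not called without Col-0 replicate 1, and its log2 fold change was 2.95 without Col-0 replicate 2. The exception was RBOHD, an NADPH oxidase that makes superoxide, which fell by 1.02.

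Heat shock genes rose, with the highest levels in 1 library. Of 20 tested chaperones and their regulators, 10 rose and 4 fell, with a median log2 fold change of 0.83, and 9 rose and 6 fell without N8507 replicate 3. HSP17.6A, a small chaperone that holds unfolded proteins, had 6.18, 15 and 167 CPM in N8507 and 1.67, 0 and 0.0683 CPM in Col-0. HSP17.4 had 6.18, 12.5 and 103.5 CPM in N8507 and 1.28, 0.496 and 0.0683 CPM in Col-0. In both, N8507 replicate 3 stood far above replicates 1 and 2, which in turn stood above every Col-0 library (log2 fold changes 6.68 and 6.0, SE 1.51 and 1.24, adjusted p = 0.0091 and 0.006). The log2 fold changes were 4.14 and 3.9 without N8507 replicate 3, and 10.5 and 7.15 without Col-0 replicate 1.

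The mitochondrial HSP23.6 gene had 2.42, 5.68 and 30.0 CPM in N8507 and no read in Col-0, at least 179-fold higher against a floor of 3 reads over the group. The chloroplast HSP21 gene had 1.85, 3.35 and 13.1 CPM in N8507 and no read in Col-0, at least 86.7-fold higher. The general chaperone gene HSP70 had 84.2, 125 and 578 CPM in N8507 and 268, 262 and 297 CPM in Col-0, below Col-0 in replicates 1 and 2 and above it in replicate 3, and was not called (log2 fold change -0.06). Without replicate 3 of N8507 it was lower there, with a log2 fold change of -1.37 (adjusted p = 0.00024). The summed level of the list was 563, 711 and 1893 CPM in N8507, against 1049, 980 and 1058 CPM in Col-0, with N8507 replicate 3 alone above Col-0. Regulators and cochaperones went both ways. HSFA7A, BAG6 and ROF2 rose by 0.78, 0.88 and 1.42 on the log2 scale, HSFB1 and HSFB2A fell by 0.7 and 0.78, and HSFA2 and HSFB2B were not called. MBF1C, a coactivator of the heat response, fell to 16.4, 22.3 and 41.4 CPM in N8507, against 91.1, 88.2 and 105 CPM in Col-0 (log2 fold change -1.82, SE 0.29, adjusted p = 0.0016). Genes of protein folding in the endoplasmic reticulum gave 0 higher and 1 lower of 12 by edgeR's test, and the same counts at an unadjusted p under 0.05 and by DESeq2, with 0 lower without N8507 replicate 2 or any 1 Col-0 library.

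**Figure D2:**
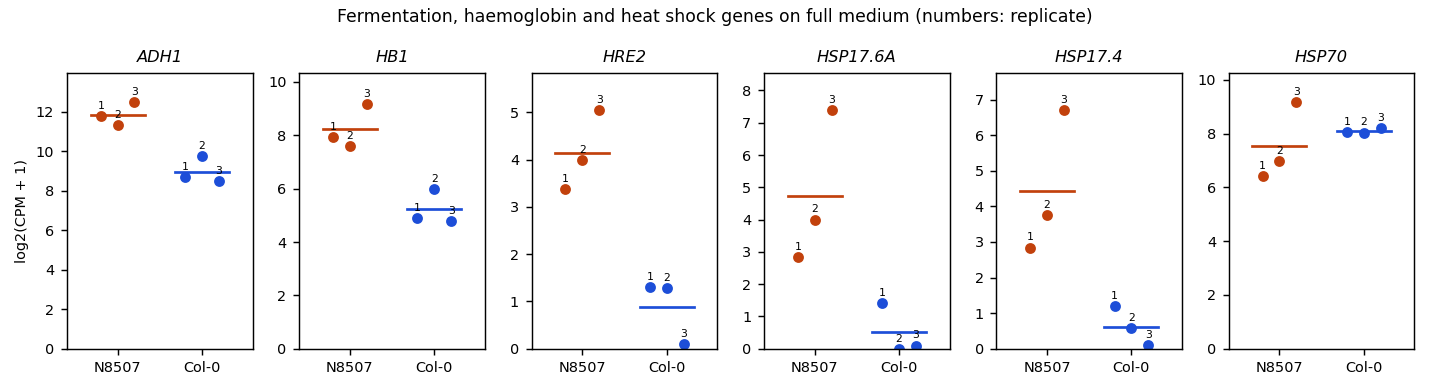
Levels of 3 hypoxia genes and 3 heat shock genes on mock medium as log2(CPM + 1) on the vertical axes, with N8507 left and Col-0 right, 1 numbered point per library (n = 3 each) and a line at the group mean. ADH1, HB1, HRE2, HSP17.6A and HSP17.4 are higher in every N8507 library, whereas HSP70 is above Col-0 in N8507 replicate 3 only.

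Heat shock factors bind repeats of GAA, searched here as GAANNTTCNNGAA and its reverse complement TTCNNGAANNTTC, which covers both strands. These letters occurred in 105 of 26639 promoters (0.394%) and in 3 of the 20 heat shock genes (15%), namely HSP17.4, HSFA2 and HSFA7A. The promoters of HSP17.4 on the reverse strand (chr3:16984868-16985117) and of HSFA7A on the forward strand (chr3:19264891-19265140), both of which rose, are shown with the matches in capitals.
HSP17.4: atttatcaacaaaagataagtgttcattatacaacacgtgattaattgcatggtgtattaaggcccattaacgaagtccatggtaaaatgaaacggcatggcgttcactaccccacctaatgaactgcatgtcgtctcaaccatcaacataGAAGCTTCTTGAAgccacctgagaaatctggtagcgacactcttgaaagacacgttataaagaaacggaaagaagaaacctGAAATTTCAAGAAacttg
HSFA7A: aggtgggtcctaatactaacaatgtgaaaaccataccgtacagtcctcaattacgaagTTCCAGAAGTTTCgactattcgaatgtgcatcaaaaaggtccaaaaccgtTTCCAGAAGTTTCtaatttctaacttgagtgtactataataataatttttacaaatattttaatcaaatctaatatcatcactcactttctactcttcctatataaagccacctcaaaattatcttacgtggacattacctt
The matches begin 99 and 18 bases before the start of HSP17.4 and 192 and 142 bases before that of HSFA7A, a heat shock factor gene with 65.9, 57.4 and 59.8 CPM in N8507 and 32.3, 39.2 and 36.5 CPM in Col-0 (log2 fold change 0.78, SE 0.12, adjusted p = 0.0016). HSFA7A was even across the 3 N8507 libraries, unlike HSP17.4.

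Detoxification genes fell. Of 22 tested glutathione transferases and related enzymes, which couple foreign or oxidised compounds to glutathione or sugars, 0 rose and 15 fell by edgeR's test, with a median log2 fold change of -1.31. Higher members numbered 1 at an unadjusted p under 0.05 and 1 by DESeq2, and 18 fell without N8507 replicate 3. By edgeR 12 fell without Col-0 replicate 1 or N8507 replicate 2, and 1 rose and 13 fell without N8507 replicate 1. GSTU4 had 0.191, 0.137 and 0.867 CPM in N8507 and 19.1, 23.0 and 22.1 CPM in Col-0, 53.4-fold lower in N8507 (log2 fold change -5.74, SE 0.45, adjusted p = 4e-05). GSTU8 had 8.73, 11.3 and 31.4 CPM in N8507 and 188, 207 and 244 CPM in Col-0 (log2 fold change -3.63, SE 0.43, adjusted p = 0.00035). In both genes every N8507 library lay far under the lowest Col-0 library. GSTU22 and GSTU10 fell by 2.92 and 2.61. Without N8507 replicate 3 the log2 fold changes of GSTU4, GSTU8 and GSTU22 were -6.92, -4.39 and -3.98.

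Mitochondrial and oxidative stress genes gave 1 higher and 7 lower of 14, with a median of -0.62. Without N8507 replicate 3 the counts were 2 and 10, and without N8507 replicate 1 or any 1 Col-0 library 0 were higher. AOX1D, an alternative oxidase that bypasses part of the respiratory chain, had no read in N8507 and 1.03, 2.34 and 1.98 CPM in Col-0, at least 25.9-fold lower in N8507. The NADH dehydrogenase gene NDB2 had 31.5, 35.6 and 35.5 CPM in N8507 and 161, 141 and 185 CPM in Col-0 (log2 fold change -2.23, SE 0.14, adjusted p = 1.4e-05). The methionine sulfoxide reductase gene MSRB8 fell by 4.0 and AOX1A by 1.62, the AOX1A call holding in 1 of the 6 fits that left out a library, that without N8507 replicate 3 (log2 fold change -2.52).

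Hormone lists also fell where they changed, with 1 exception. Jasmonate genes gave 0 higher and 6 lower of 12 and ethylene genes 0 higher and 9 lower of 17 by edgeR's test, with medians of -0.79 and -0.6. At an unadjusted p under 0.05, 0 jasmonate genes and 1 ethylene gene were higher, and 0 of either by DESeq2. JRG21, an enzyme that inactivates jasmonate, had 0.191, 0.342 and 0 CPM in N8507 and 3.98, 5.81 and 6.56 CPM in Col-0 (log2 fold change -4.83, SE 0.63, adjusted p = 0.0006, and -5.61 without N8507 replicate 2). The repressor gene JAZ1 and the jasmonate regulator gene MYC2 fell by 1.45 and 1.01. ERF1, where ethylene and jasmonate signals meet, had 0.828, 2.05 and 2.02 CPM in N8507 and 13.5, 14.9 and 19.5 CPM in Col-0 (log2 fold change -3.28, SE 0.34, adjusted p = 0.00017). The ethylene-forming oxidase gene ACO4 fell by 2.69, while ACO1, counted in the hypoxia list, rose by 1.86.

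Abscisic acid and dehydration genes split, with 6 higher and 5 lower of 12, and 2 lower without Col-0 replicate 1 or 3. The dehydrin gene COR47 had 873, 878 and 900.2 CPM in N8507 and 263, 274 and 252 CPM in Col-0 (log2 fold change 1.77, SE 0.12, adjusted p = 2.3e-05). LTI30 and ERD10, further dehydrins, rose by 1.36 and 0.83, whereas the proline synthesis gene P5CS1 and the phosphatase gene HAI1 fell by 1.85 and 1.52.

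Defence genes gave 1 higher and 8 lower of 18, with a median of -0.44, and 2 higher without Col-0 replicate 1. CYP71A12, of the pathway to the antimicrobial camalexin and related indoles, had 4.84, 2.87 and 7.01 CPM in N8507 and 102, 47.2 and 55.1 CPM in Col-0 (log2 fold change -3.78, SE 0.38, adjusted p = 0.00016). CYP71A13, of the same pathway, had no read in N8507 and 3.47, 1.42 and 1.37 CPM in Col-0, at least 31.2-fold lower in N8507. PAD3, the last enzyme of camalexin synthesis, rose by 2.82, and by 3.52 without Col-0 replicate 1. Flavonoid genes gave 3 higher and 2 lower of 6, with 1 lower without Col-0 replicate 3. CHS, chalcone synthase, had 4.27, 12.6 and 16.8 CPM in N8507 and 1.09, 0.212 and 0.342 CPM in Col-0 (log2 fold change 4.31, SE 0.65, adjusted p = 0.0013, and 5.3 without Col-0 replicate 1). Of 13 calcium genes 3 rose and 5 fell, led by the calcium pump gene ACA12 at 9.05, 4.45 and 10.5 CPM in N8507 and 161, 156 and 198 CPM in Col-0 (log2 fold change -4.41, SE 0.29, adjusted p = 1.9e-05). The calcium counts were 1 and 2 without Col-0 replicate 1, 1 and 3 without Col-0 replicate 2, and 2 and 3 without Col-0 replicate 3 or N8507 replicate 1.

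Immune receptor genes, whose products recognise pathogens inside the cell, included several read in one genotype only. Of 18 tested, 3 rose and 8 fell. DAR4 (AT5G17890) had 72.6, 65.2 and 92.3 CPM in N8507 and no read in Col-0, at least 1128-fold higher. Its neighbour CSA1 (AT5G17880) had 33.6, 35.1 and 48.9 CPM in N8507 and no read in Col-0, at least 575-fold higher. In the opposite direction RPP8 had 0.51, 0.0684 and 0.434 CPM in N8507 and 22.8, 19.3 and 24.0 CPM in Col-0 (log2 fold change -5.97, SE 0.39, adjusted p = 1.9e-05), and RPP4 had 0.51, 0.479 and 0.506 CPM in N8507 and 17.8, 17 and 17 CPM in Col-0 (log2 fold change -5.08, SE 0.24, adjusted p = 3.9e-06). RLM1 had 1 read over the 3 N8507 libraries and 192 reads over the 3 Col-0 libraries, a ratio of 191 for Col-0 over N8507 with a 95% counting interval of 33.9 to 7589. Receptors of this class lie in clusters of similar copies, so reads may be shared among paralogs and the levels of single copies are uncertain.

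Loci read in one genotype and silent in the other were collected over all 27313 loci by a rule of at least 5 CPM in each library of one group and under 0.5 CPM in each library of the other. By this rule 61 loci (0.223%) were on in N8507 and 35 (0.128%) were off in N8507. No read fell on 46 of the 61 in any Col-0 mock library, and on 16 of the 35 in any N8507 mock library. The rule uses these same values, so the counts describe and are not tested. RefSeq names a disease resistance protein for 7 of the 61 loci on in N8507 (11.5%), against 187 of all loci (0.685%), and for 0 of the 35 off loci. Of the 61, 11 lay next to another locus of the same set.

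The on loci with a symbol included SDH3-2, a succinate dehydrogenase subunit, at 69.7, 80.9 and 72.4 CPM in N8507 and no read in Col-0, at least 1097-fold higher. PP2-A6 and PP2-A8, phloem protein genes on chromosome 5 next to each other, had 58.7, 43.9 and 99.0 CPM and 44.7, 30.8 and 60.2 CPM in N8507 and no read in Col-0, at least 982-fold and 664-fold higher. PP2-A3, HR4 and the glutamate receptor gene GLR2.1 had no read in Col-0 either and were at least 413-fold, 277-fold and 226-fold higher. Others with a symbol were MLO7, HSD2, MSRB4 and scpl2. Among the off loci, the ion channel gene CNGC11 had no read in N8507 and 11.6, 10.8 and 11.7 CPM in Col-0, at least 168-fold lower in N8507, and OFP9 was at least 107-fold lower. PLC8, PPC4, TH8, PHT3;2, CRK41, scpl30, CYP716A2, PEN3 and BGLU1 made up the rest of the named off loci.

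The states were then read in libraries that the rule did not use. Of the 61, 57 reached 5 CPM in every N8507 library on -P, 54 on nanoP and 56 on mock with thorium. In the mock libraries of N8508 and N9416, 50 and 52 did so. In Col-0, 55 of the 61 stayed under 0.5 CPM in every library on -P, also 55 on nanoP and 55 on nanoP with thorium, and 51 did so in all 12 libraries of mock and these 3 media. Only 10 did so in the Col-0 libraries on -P with thorium, which are taken up in the closing observations and enter no comparison here. The off loci were less constant, since 21 of the 35 stayed under 0.5 CPM in every N8507 library on -P and 22 on nanoP. On mock medium 21 of the 35 were under 0.5 CPM in every N8508 library and 20 in every N9416 library.

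**Figure D3:**
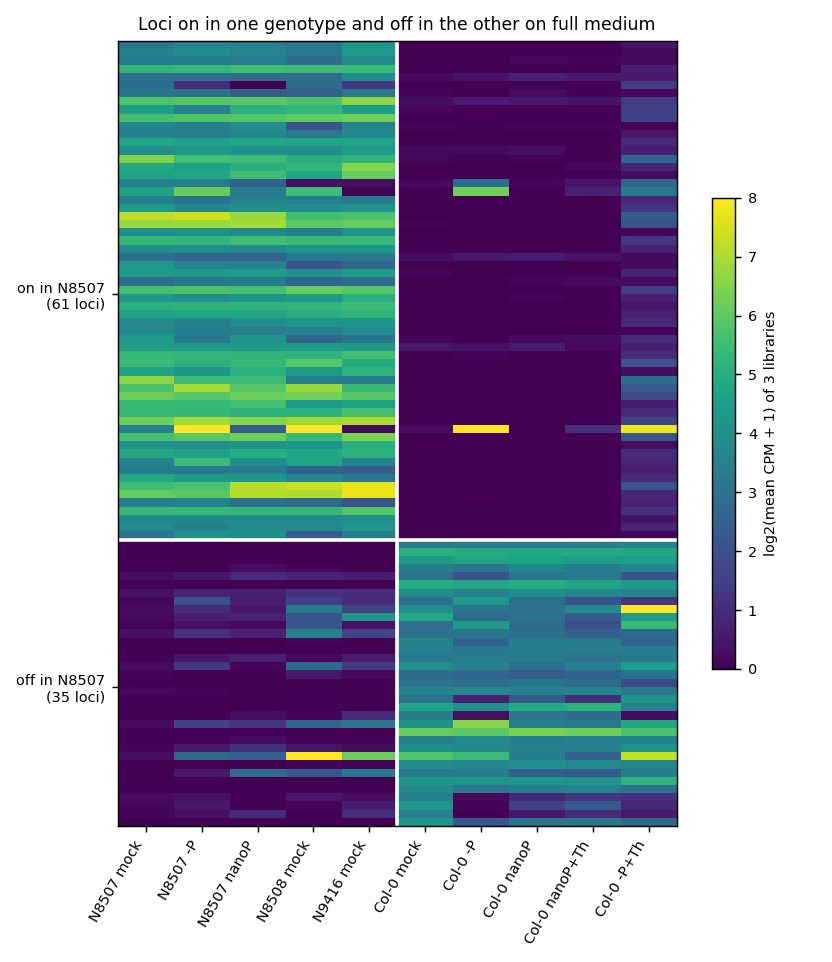
Mean level of the 61 loci on in N8507 (upper block) and the 35 loci off in N8507 (lower block), 1 row per locus, in 10 groups of 3 libraries, as a colour scale of log2(mean CPM + 1) capped at 8. Most of the upper block is coloured in the 3 N8507 groups and the N8508 and N9416 mock groups and dark in Col-0, with a faint signal in Col-0 -P+Th. Exceptions include AT5G20790, AT2G34210 and AT2G30540, which averaged 0.142, 0.0285 and 0.256 CPM in N9416 on mock and 530.5, 77.6 and 6.65 CPM in Col-0 on -P.

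Cell-type genes moved in several ways. Suberin and Casparian strip genes, which seal the endodermis, gave 4 higher and 7 lower of 19, with a median of -0.1. The higher members numbered 7, with 9 lower, without N8507 replicate 3, and 2 without Col-0 replicate 1, Col-0 replicate 3 or N8507 replicate 1. The genes that fell make suberin. The fatty acid reductase gene FAR4 had 21.3, 30.0 and 28.8 CPM in N8507 and 198, 210.5 and 249 CPM in Col-0 (log2 fold change -3.02, SE 0.16, adjusted p = 6.4e-06), and FAR1, FAR5, KCS2, CYP86A1, GPAT7 and GPAT5 fell by 2.87, 1.7, 1.66, 1.33, 0.94 and 0.81. The genes that rose were the Casparian strip genes CASP4, CASP2 and ESB1, by 1.33, 0.77 and 0.79, and the regulator gene MYB92, by 1.16. CASP2 and ESB1 were called in 2 and 3 of the 6 fits that left out a library.

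Root hair genes gave 5 higher and 0 lower of 15 by edgeR's test, with a median of 0.98. At an unadjusted p under 0.05, 10 were higher and 0 lower, and by DESeq2 9 were higher and 1 lower. By edgeR 10 were higher without N8507 replicate 2, 8 without N8507 replicate 3 and 3 without N8507 replicate 1 or Col-0 replicate 3, with 1 lower without N8507 replicate 2, N8507 replicate 3 or Col-0 replicate 3. The regulators WER, CPC, GL2, RHD6 and RSL2, which set which epidermal cells form hairs and when, were the 5. WER had 12.6, 17 and 6.07 CPM in N8507 and 4.17, 3.9 and 2.66 CPM in Col-0 (log2 fold change 1.77, SE 0.38, adjusted p = 0.0076). N8507 replicate 1 was highest for hair genes that act late, such as PRP3 at 88.4, 21.1 and 43.4 CPM in N8507 and 26.1, 23.1 and 16.3 CPM in Col-0, and these were not called.

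Phloem markers gave 0 higher and 4 lower of 6 by edgeR's test, with a median of -0.76, and their sum was 315, 321 and 329 CPM in N8507, against 546, 479 and 485 CPM in Col-0. The sucrose loader gene SUC2, a marker of phloem companion cells, had 82.0, 75.4 and 106.5 CPM in N8507 and 177, 144 and 156 CPM in Col-0 (log2 fold change -0.84, SE 0.15, adjusted p = 0.0033). In whole roots, fewer cells of a type and less RNA per cell cannot be told apart. Of 6 xylem markers 0 were called by edgeR's test, with a median of -0.36, and 0 at an unadjusted p under 0.05 or by DESeq2, but 3 were lower without N8507 replicate 1. Markers of green tissue summed to 21.5, 22.7 and 29.1 CPM in N8507 and 81.6, 45.3 and 20.3 CPM in Col-0, and seed markers were at or near 0 in all 6 libraries. Root tissue markers gave 5 higher and 0 lower of 17 with a median of 0.52, 2 being higher without Col-0 replicate 1 or 3 and 3 without N8507 replicate 1. The lignin and secondary wall list gave 0 higher and 4 lower of 18, the 4 being PAL1, 4CL1, CCR1 and CAD5 of the lignin pathway, and 9 were lower without N8507 replicate 1. None of the phloem or lignin genes was higher, and none of the root tissue markers lower, at an unadjusted p under 0.05 or by DESeq2. The part of tissue composition in the results above was not tested.

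Most ribosomal protein genes rose, by a small amount. Of 19 tested, 14 rose and 0 fell, with a median log2 fold change of 0.74. The count rested on single libraries, since 3 rose without Col-0 replicate 3, 6 without Col-0 replicate 1, 8 without Col-0 replicate 2, 9 without N8507 replicate 2 and 19 without N8507 replicate 3, with medians of 0.52 to 0.9. None was lower at an unadjusted p under 0.05 or by DESeq2. RPL16A had 33.1, 35.6 and 30.4 CPM in N8507 and 16.7, 16.7 and 14.9 CPM in Col-0 (log2 fold change 1.06, SE 0.13, adjusted p = 0.00053). The summed level was 9520, 12235 and 7182 CPM in N8507, against 6191, 6738 and 5725 CPM in Col-0, with N8507 replicate 3 nearest to Col-0. Cell division genes gave 2 higher and 0 lower of 18 with a median of 0, and the same counts at an unadjusted p under 0.05 and by DESeq2. Higher members numbered 5 without N8507 replicate 3, with a median of 0.24, 0 without Col-0 replicate 1, and 1 without Col-0 replicate 2, Col-0 replicate 3 or N8507 replicate 2.

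Sugar genes gave 5 higher and 2 lower of 13, with 4 lower without N8507 replicate 1 or 3. AT3G15450, which RefSeq names an aluminum-induced protein, had 502, 380 and 244 CPM in N8507 and 56.6, 66 and 50.8 CPM in Col-0 (log2 fold change 2.72, SE 0.26, adjusted p = 0.00012). DIN10, also induced by darkness, had 430, 341 and 214 CPM in N8507 and 64.5, 58.0 and 60.5 CPM in Col-0 (log2 fold change 2.45, SE 0.24, adjusted p = 0.00014). KMD4 and TPS8 rose by 2.47 and 1.49, and the sucrose carrier genes SUC1 and SUC2 fell.

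**Figure D4:**
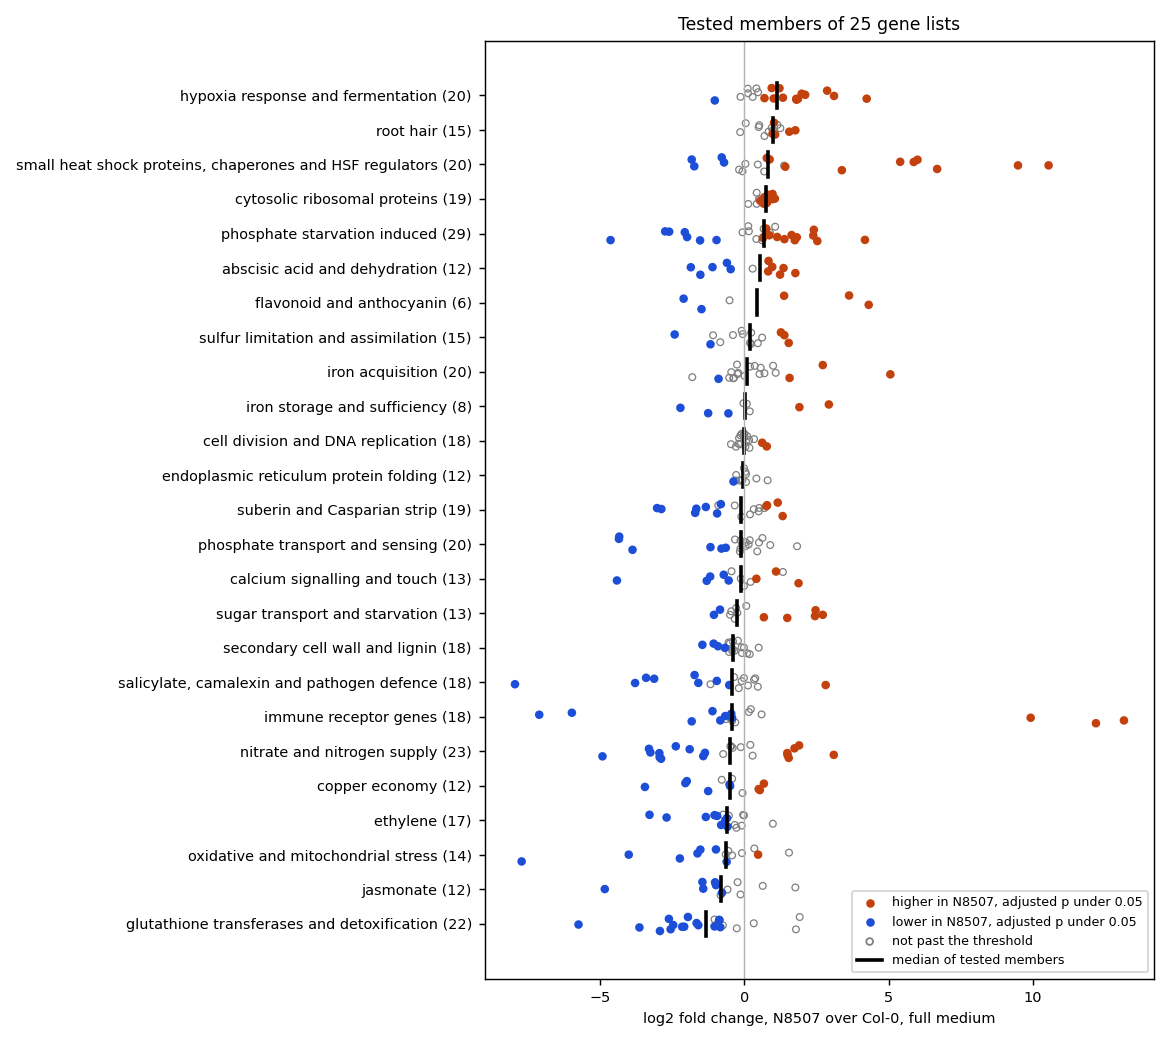
Log2 fold change of N8507 over Col-0 on mock medium for every tested member of 25 gene lists, 1 point per gene, with the number tested in brackets and a black bar at the median of each list. Filled points passed the threshold (orange higher, blue lower in N8507). Lists are ordered by median, which is 1.12 for hypoxia genes at the top and -1.31 for glutathione transferases at the bottom.

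Outside the lists, the genes with symbols that rose most included AIR1, a gene of auxin-induced lateral root formation, at 73.8, 31.3 and 53.6 CPM in N8507 and 1.6, 1.35 and 0.751 CPM in Col-0 (log2 fold change 5.43, SE 0.4, adjusted p = 3e-05). ELP had 129, 99.7 and 44.2 CPM in N8507 and 4.3, 1.63 and 0.0683 CPM in Col-0 (log2 fold change 5.51, SE 0.72, adjusted p = 0.00063, and 6.78 without Col-0 replicate 1). The amino acid exporter gene UMAMIT14 had 94.9, 52.9 and 170.2 CPM in N8507 and 4.3, 3.54 and 1.02 CPM in Col-0 (log2 fold change 5.17, SE 0.54, adjusted p = 0.0002). ST4C, FLA13 and PP2-A7 completed the group with heat shock genes, PP2-A7 having no read in Col-0 and being at least 80.0-fold higher.

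Those that fell most after HAK5 included GAMT2, an enzyme that methylates and so inactivates gibberellins, at 0.765, 0 and 0.0723 CPM in N8507 and 24.8, 27.6 and 37.2 CPM in Col-0 (log2 fold change -6.61, SE 0.6, adjusted p = 8.6e-05). THAS1, the thalianol synthase of a root triterpene cluster, had 1.66, 0.274 and 0 CPM in N8507 and 48.9, 35 and 72.9 CPM in Col-0 (log2 fold change -6.24, SE 0.66, adjusted p = 0.00021). HISN6B, of histidine synthesis, had 0, 0 and 0.289 CPM in N8507 and 14.8, 12.3 and 4.99 CPM in Col-0 (log2 fold change -6.73, SE 0.81, adjusted p = 0.00039). Each of these 3 rests on few N8507 reads, and the log2 fold change was -9.41 for GAMT2 and -8.45 for THAS1 without N8507 replicate 1 and -10.31 for HISN6B without N8507 replicate 3. GLP6, PYD4, CYP71B22 and UGT71B5 fell by 5.52, 5.4, 5.28 and 5.26, PYD4 and UGT71B5 having log2 fold changes of -7.0 and -6.24 without N8507 replicate 2 and PYD4 one of -4.8 without N8507 replicate 1. The kinase gene MKK7 had 3 reads in N8507 and 252 in Col-0, a ratio of 83.6 for Col-0 over N8507 with a counting interval of 28.3 to 408.

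The same genotypes were compared on -P and on nanoP, in libraries that share none with the mock comparison. On -P, 3985 of 19354 genes (20.6%) differed, 2033 higher (10.5%) and 1952 lower (10.1%) in N8507. On nanoP, 1643 of 19246 (8.54%) differed, 822 higher and 821 lower (4.27% each). The number called on nanoP is 3225 without N8507 nanoP replicate 3 and 594 without Col-0 nanoP replicate 3, and on -P it is 2202 without Col-0 -P replicate 2 and 2320 without N8507 -P replicate 2. Among 19070 genes tested on both mock and -P, 1352 were higher in N8507 on both, which is 41.2% of those higher on mock and 68.3% of those higher on -P, and 1356 were lower on both, 42.5% and 70.9%. Opposite calls were made for 24 genes higher on mock and 44 lower on mock. For nanoP the shared genes were 682 higher, 21.0% of the mock list and 86.5% of the nanoP list, and 710 lower, 22.1% and 88.1%. All 3 media shared 565 genes higher and 553 lower.

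Of the 12 starvation genes that were higher in N8507 on full medium, 1 rose and 3 fell on -P, and 8 rose on nanoP. PPCK1 was the one that rose on -P (log2 fold change 0.51, adjusted p = 0.029), and IPS1, PHT1;4 and PAP17 were those that fell. Over the whole list 2 of 32 rose and 9 fell on -P, and 10 of 29 rose and 3 fell on nanoP. PHT1;4 had 387, 371 and 415 CPM in N8507 and 742, 768 and 625 CPM in Col-0 on -P (log2 fold change -0.92, adjusted p = 0.0044), and the genotype effect on mock exceeded that on -P by 3.44 (SE 0.25, adjusted p = 3.2e-05). For IPS1 the genotype effect differed by 5.19 between mock and -P (SE 0.59, adjusted p = 0.00037), and for SPX1 by 1.62 (SE 0.32, adjusted p = 0.015). On nanoP IPS1, SPX1 and PHT1;4 rose in N8507 by 3.8, 1.98 and 2.63.

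PHO2 was lower in N8507 on all 3 media. On -P it had 109.6, 133 and 146 CPM in N8507 and 280.0, 302 and 481 CPM in Col-0 (log2 fold change -1.5, adjusted p = 0.0032), and on nanoP 86.9, 93.6 and 27.6 CPM in N8507 and 1726, 2628 and 2208 CPM in Col-0 (log2 fold change -4.98, adjusted p = 0.0013). The effect on mock was larger than on -P by 2.85 in the negative direction (difference -2.85, SE 0.33, adjusted p = 0.0004). By level, every Col-0 library had less PHO2 on -P than on mock, while every N8507 library had more.

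The difference between media passed the threshold for 673 of 19916 genes (3.38%) between mock and -P, with the effect on mock the lower one for 456 of them (2.29%). It passed for 210 of 19860 (1.06%) between mock and nanoP, with mock the lower for 149 (0.75%). The count for -P was 342 without Col-0 mock replicate 3 and 1148 without N8507 mock replicate 3. GDH3, lower in N8507 on mock, was higher in N8507 on -P (log2 fold change 2.19, adjusted p = 0.0081), and its effects differed by -7.11 (SE 0.37, adjusted p = 1.9e-06). Of 20 hypoxia genes 3 rose and 1 fell on -P and 2 fell on nanoP, and ADH1 was called on neither (log2 fold changes 1.14 and -0.11, adjusted p = 0.1 and 0.85). Copper genes gave 3 higher and 1 lower of 12 on nanoP, and FRO5, lower on mock, rose there by 1.63, a difference between media of -5.07 (SE 0.44, adjusted p = 0.00051). Of the sulfur genes 10 of 14 fell on -P, and 5 of 15 rose on nanoP. Of the glutathione transferases and related enzymes 2 rose and 10 fell of 22 on -P, and 1 rose and 7 fell of 21 on nanoP, and GSTU4 was lower by 6.02 and 5.4 on the log2 scale.

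**Figure D5:**
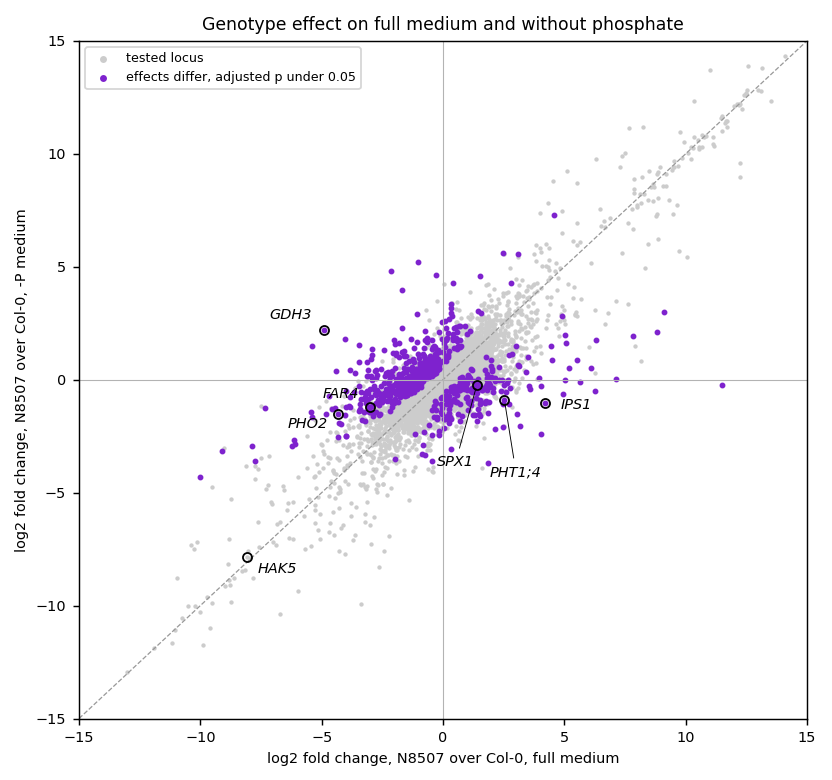
Log2 fold change of N8507 over Col-0 on mock medium (horizontal axis) against that on -P medium (vertical axis), 1 point per gene tested, with the dashed line marking equal effects and purple points marking genes whose effects differed. HAK5 lies near the line at -8.09 and -7.83, PHO2, FAR4 and GDH3 lie above it, and IPS1, PHT1;4 and SPX1 below it.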

How the data were processed

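Total RNA from roots was made into libraries with a directional kit, per the labels' protocols. The submitters' processing notes name Trimmomatic for trimming, Salmon 1.3.0 for quantification and the build TAIR10, and the strand setting is not given in the sources used here. The deposited values are Salmon's estimated counts per transcript model, with TPM, which the authors also deposited and which was not used for tests. The models are coding sequences, 99.99% of them a multiple of 3 bases long.

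Estimated counts were summed over the 32875 models to 27313 loci and rounded to whole numbers, and 97.6% of the loci had a RefSeq entry for names. CPM are these counts over the library's total, and TMM factors entered the fits. The main test was edgeR 4.0.16 (R 4.3.3), the quasi-likelihood F-test, two-sided, on the 6 libraries without covariates, after filterByExpr, with Benjamini-Hochberg adjustment and a threshold of 0.05. The same fit was made on -P and on nanoP, and differences between media were contrasts over 12 libraries. DESeq2 1.42.0, other scalings, no filter, a length offset, larger fits and leaving out each library were alternatives. Where a group had no read, a floor of 3 reads over the group gave the bound on the fold. The test was also tried on simulated counts, whose dispersion was taken from the fits of these data.

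The genes named are 8 phosphate and iron genes, up to 4 called members per list with the greatest change, the 12 top genes in each direction that had a symbol, 5 CPM or more and no overlap, and on and off loci with a symbol. Other list members and HSP70 were named after their values were seen. The comparison, the 25 gene lists with 413 of 469 members tested, and the 5 marker lists were chosen with earlier results of these data known. Counting intervals and floors cover counting error only. Some items are not reported here.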

Additional observations from a re-analysis of the deposited data

Results flagged for a closer look

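The genotype effect, N8507 over Col-0, differed between media for several of the named genes by the interaction test of edgeR with Benjamini-Hochberg adjustment, and these results are listed for that reason. Between mock and -P the effect on mock was greater by 5.19 on the log2 scale for IPS1, by 1.62 for SPX1, by 3.44 for PHT1;4 and by 3.45 for AT3G12900 (adjusted p = 0.00037, 0.015, 3.2e-05 and 0.023). For PHO2, GDH3 and FAR4 the difference was -2.85, -7.11 and -1.82 (adjusted p = 0.0004, 1.9e-06 and 0.00083). Between mock and nanoP it was 3.95 for AT3G12900 and 9.39 for CHS (adjusted p = 0.0042 and 0.026), and -1.1 for FER1, -5.07 for FRO5, -2.99 for GDH3 and -1.41 for FAR4 (adjusted p = 0.039, 0.00051, 0.00051 and 0.017). CHS had no read in the 3 N8507 nanoP libraries and 0.204 to 0.403 CPM in the Col-0 nanoP libraries, so its fitted difference depends on how the model treats a group at 0 and gives no measured size.

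The Col-0 libraries on -P with thorium, which no comparison above uses, held reads of loci that other Col-0 libraries lacked. Of the 61 loci on in N8507, 51 stayed under 0.5 CPM in all 12 Col-0 libraries on mock, -P, nanoP and nanoP with thorium, where their summed level was at most 0.863 CPM. In the 3 Col-0 -P+Th libraries the sum was 3.62, 59.1 and 135.6 CPM, against 1788, 1638 and 1674.0 CPM in the N8507 mock libraries. Each of the 51 loci had at least 1 read in a Col-0 -P+Th library, and 8 had one in all 3. The mean over the 3 was 3.89% of the N8507 mock mean. The source of these reads was not tested.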

How the results depend on the processing

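No paired analysis was possible because the labels number libraries in 1 running order and give no replicate shared between N8507 and Col-0. The main counts were 6615 genes on mock, 3985 on -P, 1643 on nanoP, and 673 and 210 for the differences of mock from -P and from nanoP. DESeq2 gave 2769 on nanoP and 1269 and 612 for the differences, and a fit of all 33 Col-0 and N8507 libraries gave 3709 on nanoP. Without 1 library the counts ran from 4247 to 8308 on mock, from 2202 to 4578 on -P, from 594 to 3225 on nanoP, from 342 to 1148 for the first difference and from 76 to 300.0 for the second. Leaving out Col-0 mock replicate 3 gave the lowest of the mock count and of both differences, and leaving out 1 N8507 library, mock replicate 3 or nanoP replicate 3, the highest of the mock, nanoP and both differences. Of 141 named genes 138 were called, and 123 to 137 without 1 library, 128 with 33 libraries and 137 with DESeq2. The gene lists held 218 called members, and 164 to 269 without 1 library. None of the 141 named genes reversed direction under the alternatives run. NIA2, named outside the 141, had a log2 fold change of 0.29, and of -0.31 without N8507 replicate 3. The loci on in N8507 numbered 84 at limits of 0.2 and 2 CPM and 49 at 1 and 10 CPM, and the off loci 43 and 32. The causes of these shifts were not tested. Depth limits low genes such as IPS1 and RNS1, which rest on under 10 CPM.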

Other observations

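The locus AT5G20790, on in N8507 by the rule used above and singled out after its values were seen, averaged 10.6 CPM in N8507 and 0.198 CPM in Col-0 on mock. It averaged 730 CPM in N8508 on mock and 530 CPM in Col-0 on -P.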
